A study of Sus scrofa with 12 samples.

Results

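The cuts described here are the sites in the nuclear genome that were assigned to let-7 family microRNAs in the loin muscle of pigs. They were taken as every listed row whose small RNA name holds let-7 or miR-98 and whose chromosome is not the mitochondrial one. The rule left 132 of 19855 rows, which collapse to 13 positions among the 1049 nuclear positions assigned to any named miRNA (1.24%, 95% Wilson interval 0.726 to 2.11, counting error only). The other 2922 let-7 rows, out of 3054, lay on 5 positions of the mitochondrial genome, so the nuclear cuts were 4.32% of all let-7 rows. Each table lists only the interactions its authors retained, so where a library lacks a site, that site was not retained there and has no measured 0.

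The data come from degradome libraries (parallel analysis of RNA ends, which sequences the 5′ ends that cutting leaves on messenger RNA) of 12 loin samples of female pigs, labelled day 180 and slaughtered at 100 ± 2 kg. Hampshire, Pietrain and Polish Large White pigs gave 4 libraries per breed, 2 titled low MM and 2 titled high MM. The labels do not say what MM stands for, the series title speaks of muscle mass, and shear force is labelled light in every low-MM and heavy in every high-MM library. In the 4 Pietrain libraries the workbook tab names exchange high and low, and groups follow the titles unless the tab names are mentioned. All animals shared feeding and housing, and no allele, treatment or transgene is labelled. For the labelled tissue, 10 of 12 skeletal muscle markers were listed as targets of some small RNA, against 1 of 6 adipose, 1 of 5 fibroblast, 1 of 4 immune, 1 of 3 blood, 0 of 4 endothelial and 0 of 3 Schwann cell markers. Over all named protein-coding nuclear genes of the reference table the share was 1264 of 16496 (7.66%). Beside that share, counts of 0 or 1 in lists this short say nothing particular about those cell types.

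The let-7 microRNAs are an old and highly conserved family whose 5p arms share a seed, the stretch at the 5′ end that chooses most targets. In animals they mainly lower translation and stability of messenger RNA through imperfect pairing, and direct slicing needs near-complete pairing around the middle of the microRNA. The family is known for promoting differentiation and for restraining cell-cycle and growth-factor genes, and it is abundant in mature muscle. miR-98 belongs to the family by its seed.

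The libraries differed in relative depth, a measure drawn from the deposited values, and its part in the counts below was not tested. The ratio of deposited normalized to weighted abundance marks a shallower and a deeper class of rows. Relative depth is the inverse of the median ratio of a class, added over the classes that a library holds. It was 2.40 to 2.95 in the 5 libraries with shallower rows only and 15.2 to 36.9 in the 7 libraries that hold deeper rows. Those 7 libraries were all 6 low-MM libraries and Pietrain high MM replicate 2, so depth and MM group can hardly be told apart. The small RNA abundance listed for let-7 was 1 or 2 and equalled the times the name is written in all 132 rows, so it gives no level of the microRNA.

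The nuclear cut listed in the most libraries lay in CCNYL1 (ENSSSCG00000024696), a cyclin of the cyclin Y family, at position 110911270 of chromosome 15. A position here is the sum of the listed window start and the cleavage position. Windows with the same sum were taken as the same position, and the genome build was not given in the sources used here. Every one of the 56 rows at the CCNYL1 position named let-7f-5p and none named another small RNA. It was listed in 6 libraries, namely both low-MM Hampshire libraries, Polish Large White low MM replicate 2, Pietrain high MM replicate 2 and both low-MM Pietrain libraries. The position held 42.4% of all nuclear let-7 rows, over 17 windows whose starts spanned 38 bases, and it was the only position in CCNYL1 in any table. CCNYL1 was named on strand 1 in 5 of the 6 libraries, while Polish Large White low MM replicate 2 listed the same position with no gene.

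The evidence category of PAREsnip, the program that paired ends with small RNAs, runs from 0 to 4. Category 0 marks a fragment peak that is the single maximum of the searched sequence, category 1 a maximum shared with other places, category 2 a peak above the average, category 3 one at or below it and category 4 a lone fragment. At CCNYL1 46 of the 56 rows had category 0, 8 had category 1 and 2 had category 4. The cleavage position was 27 to 65 bases from the window start, past the end of the listed interval of 10 bases, as in all 132 rows. The length of the sequence behind a category is therefore unknown, and the gene is the one named for the interval. The alignment score adds penalties for imperfect pairing, with 0 for a perfect duplex, and at CCNYL1 it was 4.5 in every library, the highest value that the tables hold. The deposited p-values of the position ran from 0 to 0.05 after rounding by the authors.

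Fragment abundance at CCNYL1, in the units of the deposited tables, was 10 in Hampshire low MM replicate 1 and 10 in Hampshire low MM replicate 2. It was 7 in Polish Large White low MM replicate 2 and 48 in Pietrain high MM replicate 2. In Pietrain low MM replicate 1 it was 34. The rows of 2 libraries fell into both depth classes. Pietrain low MM replicate 2 had an abundance of 6 in the deeper and 5 in the shallower class, and Hampshire low MM replicate 2 an abundance of 1 in the shallower class, which is its category 4 row.

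After division by matches and scaling by the authors, the largest normalized abundance of CCNYL1 was 0.249 in Hampshire low MM replicate 1 and 0.106 in Hampshire low MM replicate 2. It was 0.0231 in Polish Large White low MM replicate 2 and 0.147 in Pietrain high MM replicate 2. The low-MM Pietrain libraries stood at 0.163 in replicate 1 and 0.136 in replicate 2. That 0.136 came from the shallower class, and in the deeper class the same library had 0.0220. By the largest values the high-MM library lay inside the range of the low-MM libraries, and the Polish Large White library was the lowest. The deeper-class value of 0.0220 in Pietrain low MM replicate 2 was lower still. Among the nuclear positions of named miRNAs in the same library, the largest CCNYL1 value was ranked for the same order of libraries. The ranks were 9 of 106, 15 of 127, 66 of 92, 26 of 123, 13 of 106 and 27 of 192. That largest value was above the library's median in 5 of the 6 libraries. The Polish Large White value of 0.0231 lay below a median of 0.0387. In the same libraries the largest mitochondrial value of let-7f-5p was between 0.0326 and 0.0687. By largest values CCNYL1 was the higher of the 2 in 5 libraries and the lower in Polish Large White low MM replicate 2. In Pietrain low MM replicate 2 the deeper-class value of 0.0220 lay below the median of 0.0349 and the mitochondrial value of 0.0326. Those 2 values were taken over both classes, so the order there depends on the class. Ranks and medians also pooled both classes in the low-MM Hampshire libraries and Pietrain high MM replicate 2. In these the largest CCNYL1 value was of the deeper class.

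Weighted abundance is the fragment abundance divided by a number of matches. That divisor was 3 in Hampshire low MM replicate 1, 6 in Hampshire low MM replicate 2, 9 in Pietrain low MM replicate 2 and 10 in Pietrain high MM replicate 2. It reached 13 in Polish Large White low MM replicate 2 and 13.0 in Pietrain low MM replicate 1. The divisor therefore changed between libraries for the same position. It was never below the number of windows listed for a let-7 microRNA, a position, a library and a depth class (23 of 23 such listings), and the same held for 1620 of 1623 listings of all named miRNAs. Whether the divisor counts searched windows or places in the genome is not stated in the tables.

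A second position was shared by libraries, and let-7d-5p was the only small RNA named there. It lay at position 82375751 of chromosome 13 in ENSSSCG00000011673, a gene for which neither the files nor the reference table hold a symbol, named on strand 1. It was listed in Polish Large White low MM replicate 2 in 3 windows of category 0 or 1 and in Pietrain low MM replicate 2 in 1 window of category 1. Fragment abundance was 2 in each, with divisors of 3 and 2, and normalized abundance was 0.0286 and 0.0330. The alignment score was again 4.5, and both libraries listed it in the deeper class.

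Most positions did not recur. Of the 13 let-7 positions 11 (84.6%) were listed in a single library, beside 850 of the 1036 nuclear positions of other named miRNAs (82.0%). CCNYL1 stood among the more recurrent sites, since 16 of those 1036 positions were listed in 6 libraries or more.

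Among the positions of a single library, 3 had category 0 or 1. let-7a was paired in Hampshire low MM replicate 1 with position 6995325 of chromosome 3 in FOPNL (CEP20 in the reference table), which encodes a protein of the centrosome and cilia. That row had category 0, an abundance of 40 and a normalized abundance of 0.0901, but a divisor of 247. let-7e was paired in Polish Large White low MM replicate 1 with position 51641613 of chromosome 17 in UBE2V1, a ubiquitin-conjugating enzyme variant that helps build ubiquitin chains. That row had category 0, an abundance of 2, a divisor of 7 and a normalized abundance of 0.0104. let-7a was also paired in Pietrain low MM replicate 1 with position 61311783 of chromosome 12, where no gene is listed, with category 1, an abundance of 20, a divisor of 10 and a normalized abundance of 0.124. All 3 had an alignment score of 4.5, and all 3 came from low-MM libraries.

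The best pairing belonged to a site with the weakest category. Position 145954483 of chromosome 13 was listed in Pietrain low MM replicate 2 for let-7f-5p with an alignment score of 3.5, for let-7a with 4 and for let-7c with 4.5. It was the only nuclear position with more than 1 let-7 microRNA, against 4 of the 5 mitochondrial positions. The gene on one strand was CCDC191 (ENSSSCG00000011913), a coiled-coil protein, and on the other ENSSSCG00000009126, which the files list with no symbol. All its 28 rows had category 4 and an abundance of 1, with a divisor of 8 and a normalized abundance of 0.0305. CCDC191 had another listed position, paired with miR-4331-5p in Polish Large White low MM replicate 1.

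The other 5 positions of category 4 were lone fragments in single libraries, and each has an abundance of 1 as that category requires. In the tables as a whole, 3844 of 3844 rows of category 4 had that abundance. let-7i-5p was paired with position 4317163 of chromosome 14 in ATP6V1B2, a subunit of the vacuolar proton pump, in Pietrain low MM replicate 1 (alignment score 4, normalized abundance 0.0311). miR-98 was paired with position 107329619 of chromosome 9 in BCAP29, a membrane protein of the endoplasmic reticulum, in Polish Large White low MM replicate 1 (alignment score 4, normalized abundance 0.0353). let-7e was paired in Polish Large White high MM replicate 1 with 2 genes. They were ZZZ3, a subunit of a histone acetyltransferase complex, at position 135741156 of chromosome 6, and SLC25A3, the mitochondrial phosphate carrier, at position 85284496 of chromosome 5. Their normalized abundances were 0.0701 and 0.00815, with divisors of 5 and 43, and the alignment score was 4.5 for each.

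BIN1, which encodes a membrane-bending protein of the muscle T-tubules, was listed once, at position 25379153 of chromosome 15 in Hampshire high MM replicate 2. Its partner was let-7i-3p, the other arm of the hairpin, which does not carry the let-7 seed. The alignment score was 4, the divisor 38 and the normalized abundance 0.0110.

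The remaining 2 positions had category 3 and high divisors. let-7a was paired with position 84615763 of chromosome 2 in POLK, a translesion DNA polymerase, in Pietrain high MM replicate 2 (alignment score 4, abundance 20, divisor 231, normalized abundance 0.0205). let-7a was paired with position 32966921 of chromosome 10 in UBE2R2, a ubiquitin-conjugating enzyme, in Pietrain low MM replicate 2 (alignment score 4.5, abundance 20). Its divisor of 1894 was the highest among the nuclear let-7 positions and its normalized abundance of 0.00258 the lowest. UBE2R2 also had a position in the same library that was paired with an unnamed small RNA. At 4 positions, those in FOPNL, POLK and UBE2R2 and the one on chromosome 12, all abundances were multiples of 20, and the source of this step in the deposited values is not given.

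By microRNA, let-7a had 5 nuclear positions, let-7e 3, let-7f-5p 2, and let-7c, let-7d-5p, let-7i-5p, let-7i-3p and miR-98 had 1 each. No other let-7 name occurs in the tables. let-7d-5p and let-7i-3p were listed in the nuclear genome only, while miR-98, with 1 nuclear position in 1 library, was listed on 5 mitochondrial positions in 10 libraries. At their best, let-7a paired with a score of 4 in the nuclear and 3 in the mitochondrial genome and miR-98 likewise with 4 and 3, whereas let-7f-5p had 3.5 in the nuclear and 4 in the mitochondrial genome. No small RNA outside the family was named at any of the 13 positions, and no other cut of any small RNA lay within 100 bases of them.

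Whether the listed gene was the transcript that was cut is not settled for all positions. Every nuclear window is listed once per strand, 66 rows on each, while the window start and cleavage position add up along strand 1 only. The gene lay on strand 1 at 8 positions, on strand -1 at 3 (UBE2V1, UBE2R2 and SLC25A3) and on both strands at the CCDC191 position. For SLC25A3, the 6 windows were grouped by their sum of start and cleavage position, which by itself makes their differences distinct. The gene had only 1 listed position, so no window of it had another sum. With that sum the listed coordinates ran along the strand opposite to the gene. Exon, intron and untranslated region are not given in the tables.

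Lists of genes can be read only against how few genes carry a nuclear let-7 cut. Of 16496 named protein-coding nuclear genes in the reference table, 1264 (7.66%) were listed as targets of some small RNA and 11 (0.0667%) of a let-7 microRNA. Of a list of 39 genes that let-7 is known to repress, among them HMGA2, LIN28B, MYC, the RAS genes and IGF2BP1, 0 were listed for any let-7 microRNA and 2 (5.13%) for another small RNA. INSR, the insulin receptor, was listed in 1 library with miR-4331-5p, and COL3A1, a fibrillar collagen chain, in 4 libraries with miR-769-5p. Of 23 sarcomere and muscle enzyme genes 17 (73.9%) were listed as targets of some small RNA and 0 of a let-7 microRNA. At the share over all genes, neither list would be likely to hold a let-7 cut, so the counts of 0 say nothing particular about these genes.

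The let-7 cuts were then set beside the nuclear cuts of other named miRNAs in the same libraries. Pairing was weaker for let-7. At 8 of the 13 positions (61.5%) the best alignment score was 4.5, 4 stood at 4 and 1 at 3.5, against 289 of 1036 other positions (27.9%) at 4.5 and 249 (24.0%) below 3.5. Per library, the mean best score was 4.34 ± 0.174 for let-7 and 3.76 ± 0.302 for other named miRNAs (SD, n = 9 libraries with a nuclear let-7 position). let-7 was higher, which means more mispairing, in 9 of 9 libraries by 0.580 ± 0.291 (SD; two-sided exact sign-flip permutation test, p = 0.00391, the smallest that 9 libraries allow). The smallest gap was 0.0577 in Hampshire low MM replicate 1, where other miRNAs averaged 4.44, and the largest was 1.03 in Hampshire low MM replicate 2. The libraries are not fully independent here, since CCNYL1 recurs in 6 of them. Without that position the difference was 0.472 in 8 libraries (exact p = 0.00781, the smallest possible there). With miR-4331-5p left out of the other miRNAs it was 0.287, and in rows of the shallower class 0.303 (exact p = 0.00781 and 0.0156).

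let-7 positions fell towards both ends of the category scale. Category 0 or 1 was the best at 5 of 13 positions (38.5%) against 194 of 1036 (18.7%), and a lone fragment was all there was at 6 of 13 (46.2%) against 102 of 1036 (9.85%). No let-7 position had category 2 as its best, which was the commonest for other miRNAs with 442 positions (42.7%). The share with category 0 or 1 per library was 57.4% ± 39.2 for let-7 and 16.6% ± 4.52 for other named miRNAs (SD, n = 9 libraries), higher for let-7 in 7 and lower in 2 (difference 40.8 percentage points; two-sided exact sign-flip permutation test, p = 0.0156). The let-7 share rests on 1 to 4 positions per library and on CCNYL1. Without CCNYL1 the difference was 25.1 percentage points in 8 libraries (exact p = 0.141), and among rows of the shallower class it was 5.03 (exact p = 0.906).

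Divisors of let-7 positions had a median of 8, against 135 for other named miRNAs, and were at most 10 at 8 of 13 positions, against 253 of 1036 (24.4%). A divisor of exactly 1 was found at 0 of 13 let-7 and 45 of 1036 other positions (4.34%). That share alone would give 0.565 of 13 positions, so 0 of 13 is within 1 position of it. The per-library difference of -3.60 percentage points (exact sign-flip permutation p = 0.00391, n = 9 libraries) follows from let-7 standing at 0 in each library.

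High and low MM were compared next, the contrast that the study's groups imply. Low-MM libraries held 2 and 1 nuclear let-7 positions in Hampshire, 2 and 2 in Polish Large White and 3 and 4 in Pietrain, replicate 1 before replicate 2. High-MM libraries held 0 and 1, 2 and 0, and 0 and 2 in the same order. The groups overlapped at 1 and 2 positions. The means were 2.33 ± 1.03 in low and 0.833 ± 0.983 in high MM (SD, n = 6 each), a difference of -1.5 (two-sided exact permutation within each breed, p = 0.0556, 216 relabellings, smallest possible 0.00926). When the tab names set the Pietrain groups, the difference turned to 0.167 (exact p = 1).

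As a share of the nuclear positions of named miRNAs, which numbered 35 to 268 per library, let-7 took 0.764% ± 0.855 with high MM and 1.75% ± 0.826 with low MM (SD, 6 libraries each). The difference of -0.987 percentage points did not pass the test (two-sided exact permutation within breeds, p = 0.0833), and it was 0.109 by the tab names (exact p = 0.870). In rows of the shallower class alone, 4 low-MM libraries stood at 2.91% ± 1.77 and 6 high-MM libraries at 0.721% ± 0.808 (SD; exact permutation p = 0.0370). The groups overlapped there, since Polish Large White low MM replicate 1 stood at 1.05% and Polish Large White high MM replicate 1 at 1.74%. The number of let-7 positions in that class did not pass the test, at 1.5 ± 1 in the low-MM and 0.667 ± 0.816 in the high-MM libraries (SD; difference -0.833, exact permutation p = 0.389). The low-MM shares in that class came from 1 of 33, 1 of 19, 1 of 95 and 3 of 130 positions, so a single position weighs heavily.

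Counting only categories 0 to 2 separated the libraries more. Every low-MM library held 1 or 2 such positions, while 5 high-MM libraries held 0 and Pietrain high MM replicate 2 held 1, its CCNYL1 cut. CCNYL1 was also among these positions in 5 low-MM libraries and was the only 1 in Hampshire low MM replicate 2. This count was not compared without CCNYL1. The means were 1.67 ± 0.516 and 0.167 ± 0.408 (SD, n = 6 each; two-sided exact permutation within breeds, p = 0.00926, the smallest possible). The same 7 libraries are those with deeper rows, of which each held 1 or 2, while all 5 libraries with shallower rows only held 0. The count followed this split of libraries without exception, so an MM difference cannot be told apart from it. The rows themselves were of both classes. The FOPNL row was of the shallower class, and CCNYL1 in Pietrain low MM replicate 2 had such rows in both. Over all categories, 8 of the 13 let-7 positions were listed in shallower rows only and 4 in deeper rows only. By the tab names the difference in categories 0 to 2 was -0.5 (exact p = 0.556).

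CCNYL1 was listed in 5 of the 6 low-MM libraries and 1 of the 6 with high MM (two-sided exact permutation within each breed, p = 0.0833; Benjamini-Hochberg adjusted p = 1 over the 185 nuclear positions of named miRNAs seen in 2 to 10 libraries). By depth it was listed in 6 of the 7 libraries with deeper rows, Polish Large White low MM replicate 1 being the exception, and in 0 of the 5 others. ENSSSCG00000011673 was listed in 2 libraries, both low MM (exact p = 0.5, adjusted p = 1). Among all 185 positions 0% were called with the adjusted p and 0% at an unadjusted p below 0.05. At the smallest p that the design allows, 35 positions would be needed for a call. Of the 185, 101 (54.6%) were listed in more low-MM and 17 (9.19%) in more high-MM libraries, so the direction of both let-7 positions was the common one. By the tab names CCNYL1 was listed in 4 libraries of the low and 2 of the high group.

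Between breeds, Hampshire libraries held 1 ± 0.816 nuclear let-7 positions, Polish Large White 1.5 ± 1 and Pietrain 2.25 ± 1.71 (SD, n = 4 each). The breeds did not differ beyond the spread between libraries (variance between breed means, exact permutation over 34650 partitions, p = 0.422). CCNYL1 was listed in 2 Hampshire, 3 Pietrain and 1 Polish Large White library. Of the 9 libraries with a nuclear let-7 cut all had a mitochondrial one, Pietrain high MM replicate 1 had only a mitochondrial one, and Hampshire high MM replicate 1 and Polish Large White high MM replicate 2 had neither.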

How the data were processed

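The submitters' processing notes name CASAVA 1.8.2 and FastQC. Per the file headers, cuts were detected with PAREsnip. Small RNA input, genome build, row filter: not given in the sources used here. All samples are labelled pig, although the design text of the series mentions chickens. Category, alignment score, fragment abundance and small RNA abundance were used as the deposited score values. The deposited p-value has 2 decimals as the authors gave it, and its highest value is 0.05. Weighted and normalized abundances are signal values deposited by the authors: the first divides abundance by matches and the second multiplies it by a factor of unstated scale. Read depth is not given. Factors under 0.15 were called deeper.

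Analyses used pandas 2.3.3, numpy 2.4.6 and scipy 1.17.1 under Python 3.11.15. In 10 rows of other small RNAs the weighted value exceeded the abundance, and their divisor was left out. The divisor was whole within 0.01 in 21 of 23 let-7 listings. Of 13 let-7 gene identifiers, 11 matched the reference table. Tests were exact permutations over libraries, with Benjamini-Hochberg adjustment at 0.05 for single positions, and were run on simulated data. For single positions the simulation planted more fully split positions than the 35 needed for a call. It therefore does not gauge the power to call a few positions. The labels do not say whether a library is 1 animal, so p-values measure the spread between these libraries only. Members, gene lists and tests were chosen with earlier results of these data known. The rule for naming took positions in 2 or more libraries, categories 0 and 1, the 5 best alignments and the 5 highest normalized abundances. Those in UBE2R2 and SLC25A3 fall outside it and complete the account.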

Additional observations from a re-analysis of the deposited data

Results flagged for a closer look

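Polish Large White high MM replicate 2 stood apart from the other Polish Large White libraries, with 0 nuclear let-7 positions against 2 in each of the other 3. It also had the fewest nuclear positions of named miRNAs, 35, and the fewest rows, 699. It was the 1 library that stood apart in 21 groups of values examined, with a limit meant to mark about 1 in 20 groups by chance for continuous values. Its rate for small whole counts such as these was not tested. Its relative depth of 2.77 was within the range of the other libraries with shallower rows only. The part of the short table in the 0 was not tested.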

How the results depend on the processing

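Few positions limit every comparison: a library holds at most 4. The MM difference in positions was -1 without Pietrain, -0.833 in shallower rows (exact p = 0.389), between -1.77 and -1.17 without single libraries (exact p 0.0185 to 0.111, under 0.05 without Hampshire low MM replicate 2 or without Polish Large White high MM replicate 1), 0.167 by the tab names, and -1.5 in categories 0 to 2 (p = 0.00926). The MM difference in share was between -1.19 and -0.771 without single libraries (exact p 0.0463 to 0.176, under 0.05 without Polish Large White low MM replicate 1), 0.109 by the tab names, -1.94 in categories 0 to 2 (p = 0.00926) and -2.19 in shallower rows (p = 0.0370). Without CCNYL1 the differences in positions and share over all categories and rows were -0.833 and -0.416 (exact p = 0.250 and 0.370). The breed comparison kept its side of the threshold in all 15 alternatives, with exact p from 0.0563. The alignment difference stayed between 0.287 and 0.801 and past the threshold, except in the 3 high-MM libraries (0.512, exact p = 0.250, the smallest they allow). The category difference was 1.52 in high-MM libraries (exact p = 1), 5.03 in shallower rows, 25.1 without CCNYL1 and 78.6 in deeper rows (exact p = 0.0156), and between 35.5 and 47.9 without single libraries. With let-7 at 0 throughout, the difference in the share with a divisor of 1 only restated the share among the other miRNAs. It was -3.34 in high-MM libraries (exact p = 0.250), -5.94 without miR-4331-5p among the other miRNAs, -4.16 in shallower rows, and between -3.83 and -3.33 without single libraries. The causes of these changes were not tested. Leaving out CCNYL1, keeping deeper rows alone and combining categories 0 to 2 with the tab names were chosen after seeing the data. No position was called under any of 16 alternatives. CCNYL1 had exact p = 0.0278 without Polish Large White low MM replicate 1 or without Pietrain high MM replicate 2. With the replicate numbers as a block, the MM differences were -1.5 and -0.987 (exact p = 0.125 and 0.188), 0 positions were called, and CCNYL1 had p = 0.125. Same-numbered libraries of a breed did not deviate together (correlations 0.0451, -0.0610 and -0.0160 over 185 positions), so the numbers are not taken to pair animals. Positions with a divisor of 1 gave no let-7 count and were not run.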
